A study of Mus musculus with 6 samples.

Results

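Furin and its relatives among the proprotein convertases were followed across 6 microarrays of mouse CD4+ T cells. Members were the genes whose platform symbol was Furin, Pcsk1, Pcsk4, Pcsk5, Pcsk6, Pcsk7 or Mbtps1, and all 7 were on the array, out of 18193 annotated genes. Together they had 13 of the 45037 probe sets that were not controls. A gene with several probe sets was represented by the one brightest on average (mean log2 signal) across the arrays, and its others served as a check.

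The study profiled RNA from 3 T cell populations of C57BL/6 mice aged 10 to 11 weeks, with 1 Affymetrix array for each population and genotype. The first genotype, given as CD4 cre Fur flox/flox and here called Furin cKO, carries a Cre driven by the Cd4 promoter, which is active in developing T cells, and Furin alleles flanked by recombination sites. The second, given as Fur flox/flox, carries the same alleles without Cre and is here called control, although its arrays are titled wild type. The activated population was naive CD4+ CD62L+ CD44- cells stimulated for 2 days with plate-bound antibodies to CD3 and CD28. The regulatory population was sorted as CD4+ CD25+ FoxP3+ cells and the memory population as CD4+ CD62L- CD44+ cells. The labels do not say how many mice gave RNA to an array or whether populations came from the same mice. With 1 array per group, a difference between genotypes within a population has no replicate check, and such differences are given as sizes without a test.

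Proprotein convertases are serine proteases of the secretory pathway that cut precursor proteins after basic residues, or, for the site-1 protease encoded by Mbtps1, after a different motif, and so release active hormones, growth factors, receptors and transcription factors. Furin cycles between the trans-Golgi network, endosomes and the cell surface, and among its substrates is the precursor of TGF-β1. In T cells, furin is known as a gene induced by receptor stimulation and by interleukin-12 through STAT4, and its loss from T cells is known to disturb peripheral tolerance in mice.

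The Furin promoter is shown because the results turn on the transcript signal of this gene, and its annotated start sites lie in different sequence contexts. RefSeq, on build GRCm38.p6, gave Furin 2 start sites 2624 bases apart on the minus strand of chromosome 7. The 250 bases before each start are printed 5′ to 3′, with capitals marking a TATAAA or a GGGCGG found on either strand. The first window lies at chr7:80405437-80405686 and the second at chr7:80402813-80403062.
Furin upstream start: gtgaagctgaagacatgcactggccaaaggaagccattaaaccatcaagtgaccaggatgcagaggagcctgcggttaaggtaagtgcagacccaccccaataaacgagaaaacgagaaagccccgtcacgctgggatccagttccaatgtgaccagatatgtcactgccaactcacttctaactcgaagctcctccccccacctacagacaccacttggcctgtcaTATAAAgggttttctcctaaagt
Furin downstream start: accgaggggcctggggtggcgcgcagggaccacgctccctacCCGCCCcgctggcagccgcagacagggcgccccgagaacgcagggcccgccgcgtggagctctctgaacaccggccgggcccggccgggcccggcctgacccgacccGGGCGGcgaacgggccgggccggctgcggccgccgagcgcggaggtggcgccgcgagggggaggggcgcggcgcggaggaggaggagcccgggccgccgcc

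The upstream window held 1 TATAAA, 6 CpG dinucleotides and 50.4% G or C. The downstream window held 2 GGGCGG, 40 CpG dinucleotides and 83.2% G or C, and 98.7% of all windows of this length had fewer CpG dinucleotides. Among 32851 such windows, 12.4% held TATAAA and 32.7% held GGGCGG. The palindrome TTCNNNGAA, searched in the same way, was in 7.02% of windows and in none of the 7 windows found for 6 of the members. The array has a single Furin probe set, so its signal does not separate transcripts from the 2 starts.

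Signals were linear MAS5 intensities, and a floor of 47.6, the 40th percentile over all arrays, was set before taking log2. Between 62.6% and 67.4% of probe sets reached the floor on the regulatory and memory arrays, against 49.4% to 49.8% on the activated arrays. Ratios of 3′ to 5′ probe sets, a measure of RNA integrity, ordered the populations differently for different genes. For actin the ratio was 1.24 and 1.22 in activated, 1.36 and 1.35 in regulatory, and 1.56 and 1.93 in memory cells (Furin cKO before control). For Gapdh it was 1.477 and 1.513 in activated, 0.627 and 0.641 in regulatory, and 0.791 and 1.02 in memory cells (Furin cKO before control). Cd4, the defining co-receptor, read 1821.4 to 3767.7 on the 6 arrays. Foxp3, the defining transcription factor of regulatory T cells, went against the labels, with 33.8 and 50.4 on the regulatory arrays and 1116.4 and 1358.2 on the memory arrays (Furin cKO before control). Other regulatory T cell markers did not follow Foxp3, since Ikzf2, encoding Helios, read 15968.2 and 13900.9 on the regulatory arrays and 8212.6 and 9418.9 on the memory arrays. The populations are therefore called by their labels.

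Furin, the targeted gene, did not read uniformly lower on the arrays labelled Furin cKO. Its probe set, 1418518_at (Entrez Gene 18550), read 468.3 in activated Furin cKO cells against 515.8 in control cells. In regulatory cells it read 410.0 in Furin cKO against 547.2 in control. In memory cells it read 2202.9 in Furin cKO against 647.4 in control. The memory array labelled Furin cKO stood highest of the 6, and the other 5 lay between 410.0 and 647.4. The signal was 1.33-fold lower in regulatory Furin cKO cells (log2 -0.42) and differed by -0.14 on the log2 scale in activated cells. In memory cells it was 3.40-fold higher on the array labelled Furin cKO (log2 1.77), so the direction there goes against the label. Files and labels do not say where the probes lie relative to the deleted part of the gene, so a transcript lacking that part may still be read, and the signal does not settle whether functional furin was made.

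**Figure D1:**
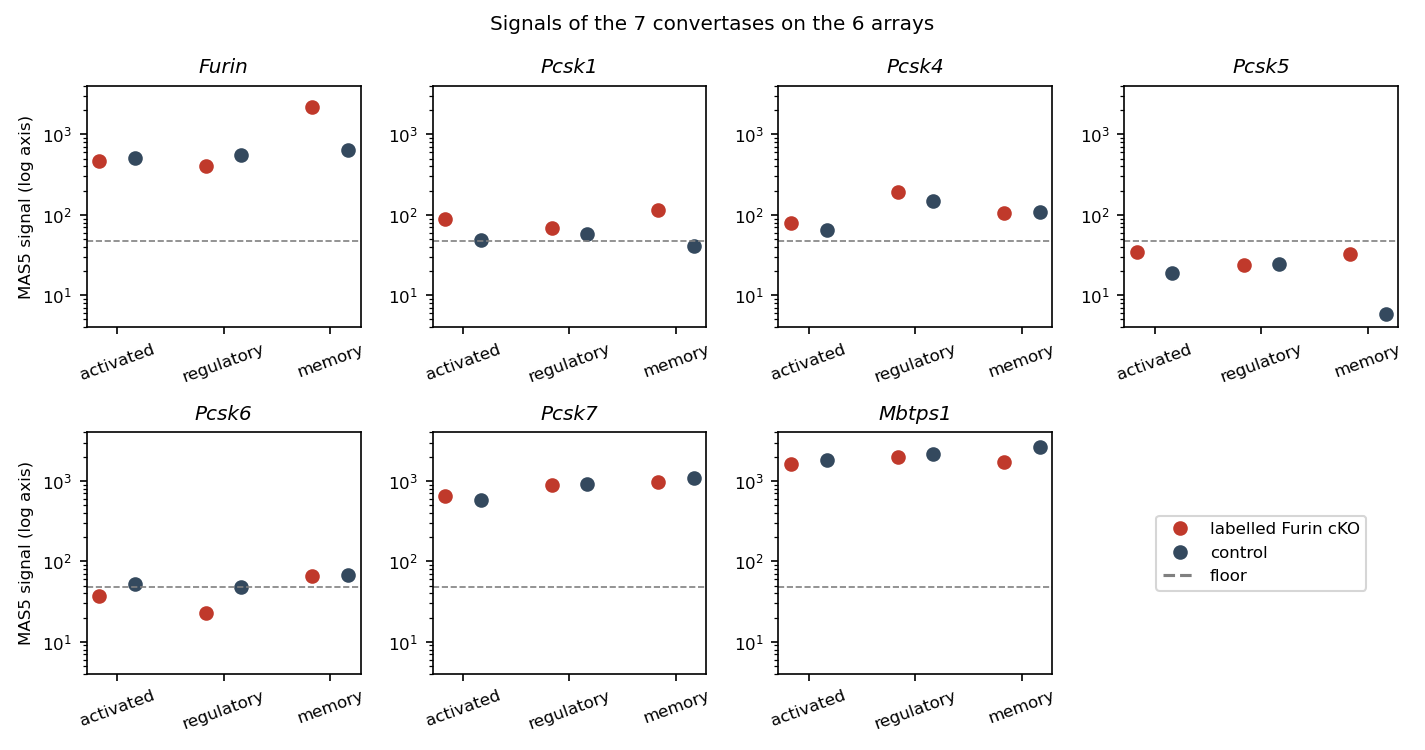
Linear MAS5 signal of each convertase (vertical log axis) on the 6 arrays, with Furin cKO left of control in the activated, regulatory and memory populations and the floor of 47.6 drawn as a line. Each point is 1 array, so there are no error bars. Furin read 2202.9 on the memory array labelled Furin cKO and between 410.0 and 647.4 on the other arrays, while the points of Pcsk5 all lie below the floor.

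The memory difference in Furin was large beside the other genes of the same pair of arrays. Among 14235 genes at or above the floor on at least 1 memory array, 149 had a higher fold, which is 1.05%. The central 95% of log2 folds ran from -1.14 to 1.38 in memory cells, from -0.95 to 1.07 in regulatory cells and from -0.59 to 0.56 in activated cells. The regulatory and activated folds of Furin lay inside those ranges and the memory fold outside. It was 1.77 to 1.96 on the log2 scale under the 5 other floors, normalizations and probe set rules.

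Signals of other cell types moved in the same pair of memory arrays. Of 8 granulocyte markers measured there, 7 were higher on the array labelled Furin cKO, 5 of them at least 2-fold. The eighth, Mmp9, was 2.10-fold lower, at 665.9 in Furin cKO against 1396.1 in control. Cxcr2, a defining granulocyte receptor, was below the floor on both, and the summed signal of all 9, Cxcr2 included, was 8139.0 in Furin cKO against 2185.0 in control. Myeloid and dendritic cell markers were lower in 10 of 13, with summed signals of 10551.5 in Furin cKO and 19519.6 in control. B cell markers were higher in 6 of 9, with summed signals of 4889.5 in Furin cKO and 3578.7 in control. Plasma cell markers were higher in 5 of 8, with summed signals of 36098.7 in Furin cKO and 26571.5 in control. Among them, Jchain, the joining chain of secreted antibodies, read 3184.6 in Furin cKO against 374.4 in control, and Igha, the IgA heavy chain, 14979.8 in Furin cKO against 2754.2 in control. The 3 lower ones were Ighm, at 9364.8 in Furin cKO against 12987 in control, Xbp1 (6326.6 against 8596) and Sdc1 (71.1 against 98.8). Of the erythroid markers, 3 of 3 measured were lower, with summed signals over 4 genes of 302.5 in Furin cKO and 889.6 in control. Mki67, a marker of cycling cells, read 5261.4 in memory Furin cKO cells against 1259.9 in control. In regulatory cells Mki67 read 2395.5 in Furin cKO against 1074.5 in control. Granulocyte markers were also higher in regulatory Furin cKO cells, in 6 of 7, with summed signals of 3037.6 in Furin cKO and 1586.5 in control. The part of these cells, or of cycling cells, in the Furin and Pcsk1 signals was not tested, and in bulk RNA more cells of a type and more RNA per cell cannot be told apart.

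The nearest annotated genes on either side of Furin had nearly equal signals in the 2 memory arrays. Fes, a tyrosine kinase gene expressed in myeloid cells, read 392.6 in memory Furin cKO cells against 376.5 in control (log2 0.06). Blm, a DNA helicase gene, read 508.4 in memory Furin cKO cells against 494.9 in control (log2 0.04). Both differences were close to 0, where that of Furin was 1.77.

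Genes with a pattern like that of Furin over the 6 arrays were ranked among 5451 genes at or above the floor on every array. By Pearson correlation the first were Tbcd (0.977), Wscd2 (0.977), Lgalsl (0.975), Dnajc15 (0.974) and Fscn1 (0.968). By root mean square difference of centred log2 signals the first were Marchf10 (0.209), Kcnk5 (0.247), Dnajc15 (0.249), Fscn1 (0.251) and Cercam (0.293). Dnajc15 and Fscn1 were named by both measures. Dnajc15, encoding a mitochondrial co-chaperone, read 8726.7 in memory Furin cKO cells against 3255.7 in control, and 2508.9 to 3150.6 on the other 4 arrays. Fscn1, encoding the actin-bundling protein fascin, read 637.4 in memory Furin cKO cells against 257.9 in control, and 166.8 to 238.2 on the other 4 arrays. The shared feature was a high value on 1 array, and these correlations describe 6 points that share that array.

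**Figure D2:**
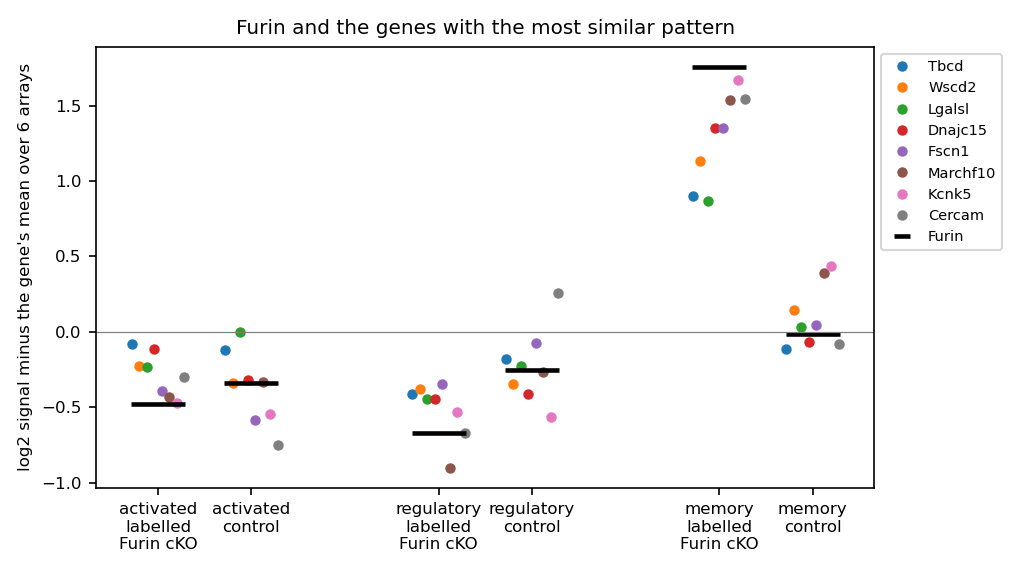
Log2 signal minus the gene's own mean over 6 arrays (vertical axis) for Furin, drawn as black bars, and for the 8 genes named as most like it, drawn as points. Furin cKO stands left of control in each population. All 9 genes are highest on the memory array labelled Furin cKO.

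Pcsk7 and Mbtps1 were measured well above the floor on every array. Pcsk7, encoding a widely expressed convertase of the trans-Golgi network (1417180_at, Entrez Gene 18554), read 649.7 in activated Furin cKO cells against 587.3 in control. It read 887.1 in regulatory Furin cKO cells against 910.4 in control, and 959.4 in memory Furin cKO cells against 1075.2 in control. Its genotype differences were 0.15, -0.04 and -0.16 on the log2 scale. The 3 populations did not overlap, though regulatory control (910.4) and memory Furin cKO (959.4) lay close. How many of all genes separate in this way was not counted.

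Mbtps1, encoding the site-1 protease that activates membrane-bound SREBP and ATF6 factors (1448240_at, Entrez Gene 56453), read 1616.5 in activated Furin cKO cells against 1799.3 in control, and 2001.3 in regulatory Furin cKO cells against 2139.7 in control. In memory cells it read 1732.2 in Furin cKO against 2603.6 in control (log2 -0.59). The 2 other Mbtps1 probe sets gave the opposite direction in memory cells, with 218.5 in Furin cKO against 177.9 in control for 1431385_a_at, and 187.0 against 167.8 for 1431386_s_at. They were also opposite in activated cells, so no direction is given for Mbtps1 there or in memory cells.

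Pcsk1, which encodes the convertase best known for prohormone processing in neuroendocrine cells (1421396_at, Entrez Gene 18548), was dim but higher on every array labelled Furin cKO. It read 89.4 in activated Furin cKO cells against 48.5 in control, a 1.84-fold difference (log2 0.88) that 70 of 10756 genes exceeded. It read 68.8 in regulatory Furin cKO cells against 57.3 in control (log2 0.26). In memory cells it read 113.9 in Furin cKO against 40.4 in control, which is below the floor, so the difference was at least 2.39-fold. The memory difference was 0.98 with quantile normalization and 0.96 with cyclic loess on the log2 scale, short of 2-fold in both.

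Pcsk4, which encodes a convertase known for its role in sperm fertility (1425824_a_at, Entrez Gene 18551), was brightest in regulatory cells. It read 79.8 in activated Furin cKO cells against 65.7 in control, and 190.8 in regulatory Furin cKO cells against 149.6 in control. In memory cells it read 105.2 in Furin cKO against 108.0 in control. The regulatory arrays were above the 4 others, and the genotype differences were 0.28, 0.35 and -0.04 on the log2 scale.

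Pcsk6, encoding the convertase PACE4 (1426981_at, Entrez Gene 18553), stayed near the floor. It read 37.0 in activated Furin cKO cells against 53.0 in control, 22.8 in regulatory Furin cKO cells against 48.4 in control, and 66.5 in memory Furin cKO cells against 67.5 in control. Both values below the floor were on arrays labelled Furin cKO. Pcsk5, encoding PC5/6 (Entrez Gene 18552), was below the floor with all 5 of its probe sets on all 6 arrays, and its signals ran from 1.0 to 44.5. No fold is given for it.

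Thus 4 members, Furin, Pcsk4, Pcsk7 and Mbtps1, were at or above the floor on all 6 arrays, 2 on some arrays and 1 on none. In activated cells, 0 of 6 measured members differed at least 2-fold between genotypes, where 0.762% of genes did (0.39% higher and 0.372% lower). In regulatory cells, 0 of 6 did, where 5.26% of genes did (3.14% higher and 2.12% lower). In memory cells, 2 of 6 did, Furin and Pcsk1, both higher on the array labelled Furin cKO, where 5.62% of genes were at least 2-fold higher, 3.64% lower and 9.26% either. Pcsk1 was measured in memory cells only through the array labelled Furin cKO, the one where it reached the floor. By the chosen probe sets, 3 members were higher and 3 lower in activated cells, and 2 were higher and 4 lower in each of the other populations. Mbtps1 is among the lower ones although its other probe sets went the opposite way in activated and memory cells, and with the mean of each gene's probe sets 4 members were higher and 2 lower in activated cells. The members' median log2 folds of 0.00, -0.03 and -0.03 in activated, regulatory and memory cells stood beside -0.00, -0.01 and -0.01 over all genes.

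**Figure D3:**
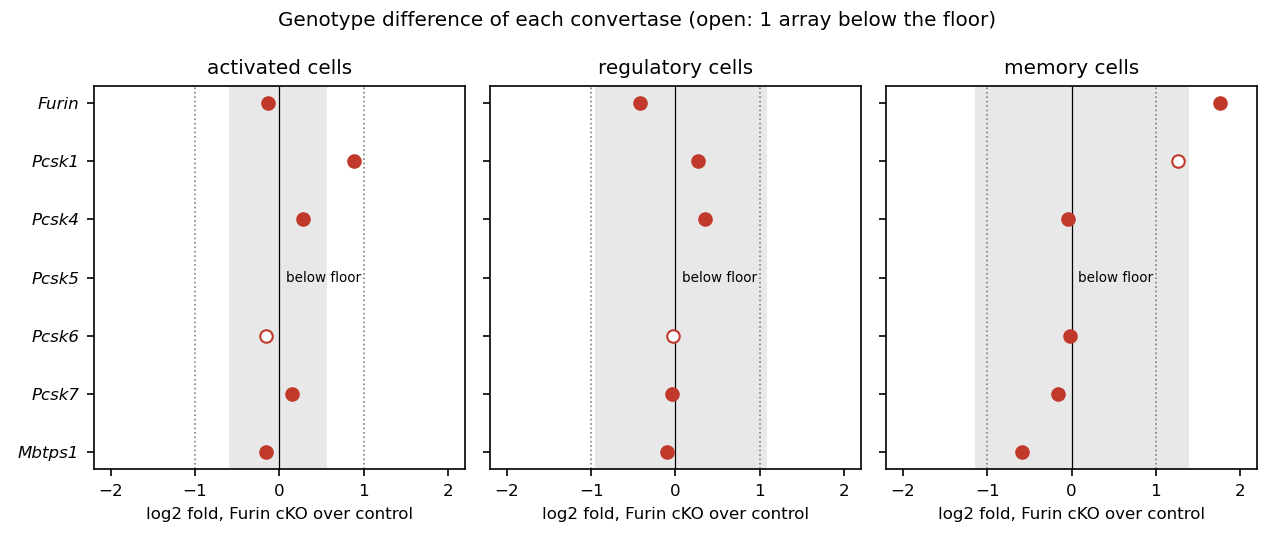
Log2 fold of Furin cKO over control (horizontal axis) for each convertase in each population, with the central 95% of folds over all genes shaded and 2-fold dotted. Open symbols have 1 array below the floor, and there are no error bars because each group is 1 array. The memory values of Furin, 1.77, and Pcsk1, at least 1.26, are the only ones past the 2-fold line.

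A model with population and genotype as additive terms treats the genotype difference as repeated in 3 populations and leaves 2 residual degrees of freedom. In this limma fit over 15811 genes, 0 genes passed a Benjamini-Hochberg adjusted p of 0.05 for genotype (0% of genes and 0 of 6 members), while 444 genes and 1 member had an unadjusted p below 0.05. That member was Pcsk1, higher in 3 of 3 populations by 0.80 ± 0.23 on the log2 scale (SE, unadjusted p = 0.0222, adjusted p = 0.819 in limma). Furin differed by 0.40 ± 0.48 (SE), with an adjusted p of 0.836 in limma, and by -0.28 when both memory arrays were left out, an alternative chosen after the data were seen. The residual SD of Furin was 0.84, larger than in all but 189 of 15811 genes (1.20%), where the median gene had 0.19. The additive model thus described Furin less closely than most genes. The chosen probe set of Mbtps1 differed by -0.28 ± 0.15 (SE, adjusted p = 0.819 in limma), and the mean of its probe sets by -0.04, so no direction is given.

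Between populations, the 2 genotypes serve as the repeat. In limma, 44.6% of 15811 genes passed the adjusted threshold between activated and regulatory cells and 44.3% between activated and memory cells. Of the members, 2 of 6 passed between activated and regulatory cells and 1 of 6 between activated and memory cells, all lower in activated cells, where 26.5% and 26.9% of genes were lower. Pcsk4 was 2.33-fold lower in activated than in regulatory cells (log2 -1.22 ± 0.17 SE, adjusted p = 0.00749). Pcsk7 was 1.45-fold lower in activated than in regulatory cells (log2 -0.54 ± 0.15 SE, adjusted p = 0.0486) and 1.64-fold lower than in memory cells (log2 -0.72 ± 0.15 SE, adjusted p = 0.0228).

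The 2 calls between activated and regulatory cells depended on the scaling. The median gene was lower by 0.23 on the log2 scale in activated than in regulatory cells and by 0.21 than in memory cells, and quantile normalization or cyclic loess set that shift to 0.00. With these normalizations the activated minus regulatory difference was -0.32 and -0.29 for Pcsk4 and -0.33 and -0.38 for Pcsk7, and neither passed. Pcsk1 and Pcsk6 passed in their place, with differences of 1.12 and 0.65 after quantile normalization and 1.13 and 0.64 after cyclic loess. Both genes were dim, so these calls rest on signals near the floor of 47.6. Before normalization, Pcsk1 read 48.5 to 89.4 and Pcsk6 22.8 to 53.0 on the activated and regulatory arrays. The call of Pcsk7 between activated and memory cells passed with both, at -0.55 (adjusted p = 0.0378) after quantile normalization and -0.62 (adjusted p = 0.0262) after cyclic loess. Leaving out 1 array leaves a population with 1 array and the fit with 1 residual degree of freedom, so only sizes are given for such fits. With any 1 array left out, the activated minus regulatory difference ran from -1.34 to -1.11 for Pcsk4 and from -0.66 to -0.42 for Pcsk7.

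Furin itself did not pass between any 2 populations, although its values in activated cells (468.3 and 515.8, Furin cKO before control) and in regulatory cells (410.0 and 547.2) lay below both memory values. The limma difference was -1.33 ± 0.59 (SE, adjusted p = 0.302) for regulatory against memory cells, -1.28 ± 0.59 (SE, adjusted p = 0.165) for activated against memory cells and 0.05 ± 0.59 (SE) for activated against regulatory cells. The memory array labelled Furin cKO set the size of the first 2. Among control arrays alone, regulatory minus memory was -0.24 and activated minus memory -0.33 on the log2 scale. Without the memory control array, activated minus memory was -2.30 in limma. Without the memory array labelled Furin cKO, it was -0.26. Between regulatory and memory cells, 0 genes and 0 of 6 members passed in limma, while 3359 genes and 2 members had an unadjusted p below 0.05. The smallest adjusted p was 0.0518, and 448 genes passed with the floor at the 60th percentile, 155 with limma's trend and 21 with the mean of probe sets, none of them a member.

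Genes known to carry, sort or inhibit furin were followed as a list, of which 17 of 18 were on the array. Between genotypes, 0 of 14 measured members differed at least 2-fold in activated cells, 1 of 17 in regulatory cells and 0 of 16 in memory cells, where 0.762%, 5.26% and 9.26% of all genes did. The 1 gene, a share near that of all genes, was Serpinb8, encoding a serpin that inhibits furin, at 107.8 in regulatory Furin cKO cells against 28 in control, at least 2.26-fold higher. With quantile normalization, cyclic loess or the mean of probe sets, 0 of 17 were at least 2-fold higher. In memory cells, 9 of 16 were lower in Furin cKO, and the list's median log2 fold was -0.20 beside -0.01 for all genes. That median was -0.13 with quantile normalization, -0.11 with cyclic loess and -0.04 with the mean of probe sets, where 8 genes were higher and 8 lower. Gga1 and Gga3, encoding adaptors that sort cargo at the trans-Golgi network, read 432.1 and 762.7 in memory Furin cKO cells, against 727.0 and 1203.0 in control. Gbp2, encoding a guanylate-binding protein that lowers furin activity in human cells, was 1.75-fold higher in memory Furin cKO cells, at 5604.2 against 3205.9 in control.

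Between populations, sorting genes passed the test at a share near that of all genes. In limma, 3 of 17 were higher and 6 lower in activated than in regulatory cells. Of all genes, 18.1% were higher, 26.5% lower and 44.6% either. Flna, encoding filamin A, which tethers furin to the cytoskeleton, read 803.6 and 637.0 in activated cells and 4025.3 and 4843.8 in regulatory cells (Furin cKO before control), a log2 difference of -2.63 (adjusted p = 0.00263). Pacs1, encoding the sorting protein that returns furin to the trans-Golgi network, read 177.6 and 178.0 in activated cells and 612.2 and 862.9 in regulatory cells (log2 -2.03, adjusted p = 0.00332). Pacs2, its relative, differed by -2.37 and Sorl1, a sorting receptor, by -2.23. Gga2 was higher in activated cells by 1.58 and Gbp2 by 1.12. These 6 genes also passed with both normalizations, in the same direction.

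The substrates and partners of the site-1 protease made a further list, with 13 of 14 on the array. In Furin cKO cells, 10 of 13 were lower in activated, 9 of 13 in regulatory and 8 of 11 in memory cells. The medians of -0.16, -0.11 and -0.18 on the log2 scale stood beside -0.00, -0.01 and -0.01 over all genes. With the mean of probe sets the list's medians were -0.09, -0.07 and -0.18. They were -0.12, -0.12 and -0.11 with quantile normalization and -0.15, -0.11 and -0.11 with cyclic loess. The count at least 2-fold apart was 0 of 13, 1 of 13 and 0 of 11, beside 0.762%, 5.26% and 9.26% of all genes. The 1 gene was Creb3l3, encoding a membrane-bound transcription factor, at 17.8 in regulatory Furin cKO cells against 154.6 in control, at least 3.25-fold lower. In memory cells the largest differences were those of Creb3l2 (log2 -0.65) and Atf6b (log2 -0.51). Scap, the escort protein of SREBP, read 1384.8 in memory Furin cKO cells against 1863.4 in control, but its other probe set differed by only 0.004 on the log2 scale. Srebf1, encoding SREBP1, read 1973.1 in memory Furin cKO cells against 2644.9 in control. The 3 genes higher in memory Furin cKO cells were Insig2 (log2 0.41), Atf6 (0.40) and Srebf2 (0.17). In limma, 0 of 13 passed for genotype.

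Between activated and regulatory cells, 7 of these 13 genes were higher and 3 lower in limma, where 18.1% and 26.5% of all genes were. Mbtps2, encoding the site-2 protease that cuts after site-1 protease, read 1856.6 and 1963.1 in activated cells and 872.7 and 873.9 in regulatory cells (Furin cKO before control), a log2 difference of 1.13 (adjusted p = 0.00576). Insig1, which retains the SCAP-SREBP complex in the endoplasmic reticulum, read 1452.7 and 1622.6 in activated cells and 587.1 and 503.9 in regulatory cells (Furin cKO before control, adjusted p = 0.00519). Creb3l2 was lower by -2.34 and Srebf2, encoding SREBP2, by -1.08 on the log2 scale. Both normalizations kept these 4 calls, and the floor at the 20th percentile gave 3 higher and 2 lower. Mbtps1 itself was not called, at -0.28 (adjusted p = 0.301), and its mean over probe sets was -0.75 (adjusted p = 0.0207). Mbtps2 and Insig1 were chosen after their values were seen.

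**Figure D4:**
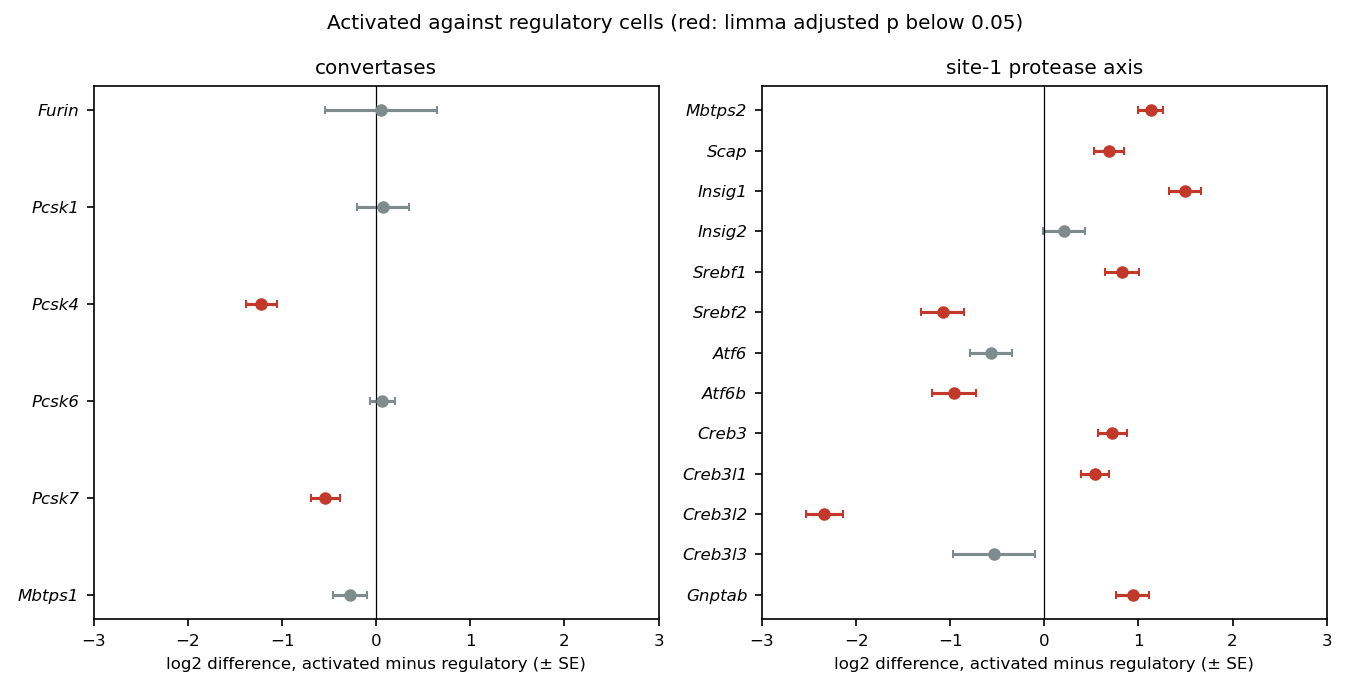
Log2 difference of activated minus regulatory cells (horizontal axes) with its standard error in the limma fit, for the 6 measured convertases on the left and the site-1 protease axis on the right, with an adjusted p below 0.05 in red. Among convertases, Pcsk4 at -1.22 and Pcsk7 at -0.54 are red, and both calls were lost with quantile normalization and cyclic loess.

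**Figure D5:**
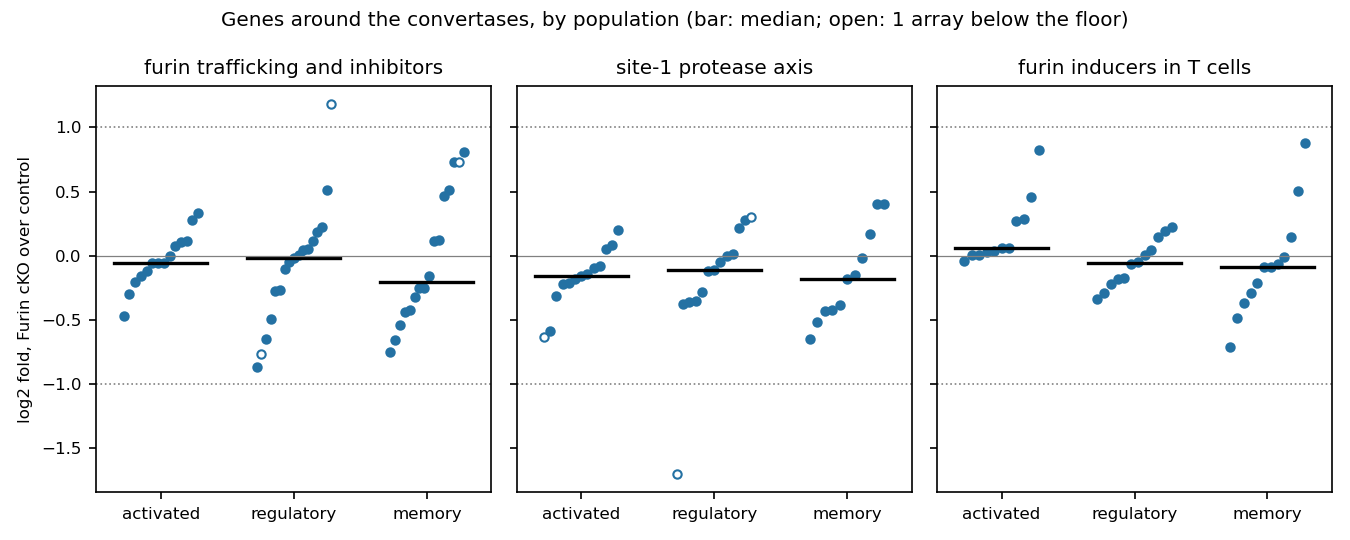
Log2 fold of Furin cKO over control (vertical axis) for the genes of 3 lists in each population. The last list, titled furin inducers in T cells, holds genes of pathways linked to Furin induction. Points are single genes on 1 array pair, open where 1 array was below the floor, bars are medians and dotted lines mark 2-fold. Of the genes shown, Serpinb8 and Creb3l3, both in regulatory cells, pass 2-fold.

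Genes of pathways linked to Furin induction, the interleukin-12 and TGF-β pathways among them, were the last list, with 12 on the array. The list does not separate activators from inhibitors of a pathway, and not each gene is a known inducer of Furin. In any population 0 were past 2-fold between genotypes, where 0.762%, 5.26% and 9.26% of all genes were in activated, regulatory and memory cells. In activated cells 10 of 11 were higher in Furin cKO, with a median log2 fold of 0.06 beside -0.00 over all genes. With the mean of probe sets 8 were higher and 3 lower, with a median of 0.01. Tbx21, encoding T-bet, was 1.77-fold higher there, at 2140.0 in Furin cKO against 1207.6 in control. In memory cells 3 of 12 were higher and 9 lower in Furin cKO, with a median log2 fold of -0.09 beside -0.01 over all genes. Il12rb2, a chain of the interleukin-12 receptor, read 261.7 in memory Furin cKO cells against 142.0 in control, and Tgfb1 read 1788.3 in Furin cKO against 2931.9 in control. With the mean of each gene's probe sets, 7 of the 12 were higher and 5 lower in memory cells, with a median of 0.06.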

How the data were processed

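RNA was hybridised to 6 Affymetrix mouse arrays, 1 per group. The deposited values are MAS5 intensity signals on a linear scale, made by the authors; MAS5 is named in the submitters' processing notes, and the trimmed mean of 500 on each array was found from the values. Of 45101 probe sets, 64 controls were left out, and 34945 carried 1 gene symbol in the platform annotation, 932 several and 9160 none. Symbols were checked against RefSeq through Entrez identifiers (34741 matched, 0 changed). Signals below 47.6 were set to 47.6 before log2. A fold needed 1 array at or above that floor. Limma 3.58.1 in R 4.3.3 was fitted to 15811 genes, with Benjamini-Hochberg adjustment, after tests on simulated data. P-values set a difference against the departure of single arrays, 1 per group, from the additive fit. That departure has 2 residual degrees of freedom, which limits their precision. A genotype difference that varies between populations, as that of Furin did, counts there as spread.

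The members and gene lists were chosen with earlier results of these data known. The text names the 7 members, the 5 genes most like Furin by each of 2 measures, its neighbours, and, per list and population, up to 4 genes with the largest genotype folds and those past 2-fold. Alternatives were floors at the 20th and 60th percentile, quantile and cyclic loess normalization, the mean of probe sets, no filter, limma with trend, and leaving out each array.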

Additional observations from a re-analysis of the deposited data

Results flagged for a closer look

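The Furin difference between genotypes ran in opposite directions in different populations. In memory cells the log2 fold of Furin cKO over control was 1.77, against -0.14 in activated cells, a difference of 1.91. The regulatory fold was -0.42, so the memory fold exceeded it by 2.18. With 1 array per group neither difference was tested. Both rest on 1 reading, the 2202.9 on the memory array labelled Furin cKO.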

How the results depend on the processing

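Furin kept its direction in each genotype comparison under the 5 alternatives run. In regulatory cells 1 of 7 members was at least 2-fold apart with the floor at the 20th percentile (Pcsk6, log2 -1.09), beside 18.6% of all genes. With the main floor it was 0 of 6, beside 5.26%. In memory cells the count was 2 of 6 in the main setting, beside 9.26% of all genes. It was 1 of 3 with the floor at the 60th percentile, beside 4.76% of all genes. With quantile normalization it was 1 of 6, beside 8.78%, and with cyclic loess 1 of 6, beside 7.84%. A floor at the 20th percentile gave 3 of 7 there, beside 22.1% of all genes. Between activated and memory cells 1 of 6 members passed in limma, beside 7003 genes in all. The count became 0 of 7 with the floor at the 20th percentile (6325 genes). It became 4 of 6 with the mean of probe sets (6533 genes) and 2 of 7 without the filter (5261 genes). Between activated and regulatory cells 2 of 6 passed, beside 7058 genes in all. The count became 1 of 7 with the floor at the 20th percentile (6551 genes) and 1 of 4 at the 60th (6457 genes). It became 1 of 7 without the filter (5257 genes) and 3 of 6 with the mean of probe sets (6694 genes). Without both memory arrays, an alternative chosen after the data were seen, it became 1 of 6 (7937 genes).

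Signs turned as follows. For genotype, Pcsk7 was 0.0061 with quantile normalization, 0.013 with cyclic loess and 0.054 without both memory arrays, and Furin -0.28 without them. For activated against memory cells, quantile normalization gave 0.66 for Pcsk1, 0.34 for Pcsk4 and 0.43 for Pcsk6, and cyclic loess 0.72, 0.28 and 0.45. Leaving out 1 array gave ranges that crossed 0: for genotype, Furin -0.28 to 0.81 and Pcsk7 -0.10 to 0.05; for regulatory against memory, Pcsk1 -0.63 to 0.17 and Mbtps1 -0.27 to 0.19; for activated against memory, Pcsk1 -0.50 to 0.18; for activated against regulatory, Furin -0.56 to 0.67, Pcsk1 -0.33 to 0.47 and Pcsk6 -0.00063 to 0.13. The cause was not tested. Leaving out an array leaves 1 residual degree of freedom and assumes that a lone array varies like the others. The additive fit already uses population as the block for genotype and genotype as the block for population. No paired analysis was possible beyond that, with 1 array per group and labels that do not say whether populations share mice. Signals near the floor limit Pcsk1, Pcsk5 and Pcsk6.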

Other observations

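Of the genes most like the other measured convertases over the 6 arrays, Pcf11 came first for Pcsk4 (r 0.994), Zzef1 for Pcsk7 (r 0.997) and Arhgef7 for Mbtps1 (r 0.996), each over 6 arrays and as a description. Sidt2, the neighbour of Pcsk7 that encodes a lysosomal membrane protein, read 1172.7 in memory Furin cKO cells against 2014.2 in control (log2 -0.78), while Pcsk7 differed by -0.16. Ell2, the neighbour of Pcsk1 that encodes a transcription elongation factor, read 3738.2 and 3475.1 in activated cells and 340.0 and 428.9 in regulatory cells (Furin cKO before control).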
